A study of Mus musculus with 12 samples.

Results

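The genes described here encode the leptin receptor, the gp130 family of cytokine receptors, the transcription factor STAT3 and the feedback inhibitors that act on them, in mouse granulosa cells. The members were the 10 genes Lepr, Il6st, Il11ra1, Lifr, Osmr, Stat3, Socs1, Socs2, Socs3 and Cish. Every array probe set whose platform annotation gave 1 of these symbols was taken. This found 9 of the 10 genes with 29 probe sets, among 18194 genes tested. The level of Il11ra1, which encodes the receptor chain for interleukin 11, was not analysed here.

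The study compared granulosa cells, which line the ovarian follicle, of wild-type (WT) littermates and of mice in which exon 6 of Snf2l is deleted in the germline (Ex6DEL). Snf2l, symbol Smarca1, encodes an ATPase that moves nucleosomes. The deletion came from crossing a loxP-flanked exon 6 allele made in 129Sv mice with a broadly expressed Gata-1 Cre transgene in a CD-1 background, and the line was later kept on 129SV without Cre. It is therefore carried by all cells of the animal and not by the granulosa cells alone. All 4 groups received 5 IU of pregnant mares' serum gonadotropin (PMSG) at 24 to 26 days of age. The 0 h groups, WT and Ex6DEL, were collected 48 h after that injection with no further treatment. The 4 h groups, WT and Ex6DEL, received 5 IU of human chorionic gonadotropin (hCG) at 48 h and were collected 4 h later. Each of the 12 Affymetrix arrays, 3 per group, carried RNA from cells pooled from 5 mice. The labels do not state that a group's 3 arrays stem from different pools, and p-values may then measure technical spread alone.

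Cytokines of the interleukin 6 family, among them leukemia inhibitory factor and oncostatin M, bind receptor pairs that share the chain gp130, which Il6st encodes. The leptin receptor is a close relative that signals without gp130. Both kinds of receptor activate JAK kinases, which phosphorylate STAT3, and STAT proteins then switch on genes of the SOCS family and Cish, whose products shut the signal off. hCG acts on granulosa cells through the luteinizing hormone receptor and starts ovulation.

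The values were log2 intensities. They ran from a floor of 2.21 to 18.18, with array medians of 2.75 to 2.91. A share of 36.4% to 40.5% per array stood no more than 0.1 above the floor. A level near the array median is therefore close to background. Levels of different probe sets are not comparable with each other, and a gene with several probe sets is represented by the one with the highest mean over the 12 arrays. Of 12 granulosa markers 11 were measured, and their mean level per array lay between 11.75 and 14.44, while Amh lay at the floor throughout. The probe set of Smarca1 read 10.72 ± 0.40 (SD, n = 3) in WT and 10.76 ± 0.18 in Ex6DEL at 0 h, and whether its probes lie in exon 6 was not examined, so it does not test the labels. In RNA of pooled cells, fewer cells that express a gene and less RNA per cell cannot be told apart.

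At 4 h after hCG, Lepr was the member that differed most, and it rose by a similar size in both genotypes. Socs3, a feedback inhibitor of both receptor families, rose when the genotypes were averaged, and Stat3 rose on 2 of its 4 probe sets in that comparison. No member was called between the genotypes at either time. One limma model was fitted to all 12 arrays, its p-values were adjusted by Benjamini-Hochberg over 18194 genes, and calls were made where that p was under 0.05. In WT 1 of 9 members, Lepr, was called up, beside 0.61% of all genes called up and 0.929% called in either direction. In Ex6DEL again only Lepr was called of the 9, beside 0.566% of all genes called up and 2.17% in either direction. With the genotypes averaged, Lepr and Socs3 were called up, 2 of 9 members, beside 3.1% of all genes called up, 6.62% called down and 9.72% in either direction. The median change of the 9 members was 0.51 on the log2 scale in the averaged comparison, against -0.01 over all genes. Of the members 6 of 9 had a positive change there, against 41.1% of all genes. At an unadjusted p under 0.05 there were 6 of 9 members, beside 23.1% of all genes. The members were chosen with earlier results of these data known. Many of all genes lie near background, and a change of 0 counts as not positive.

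**Figure D1:**
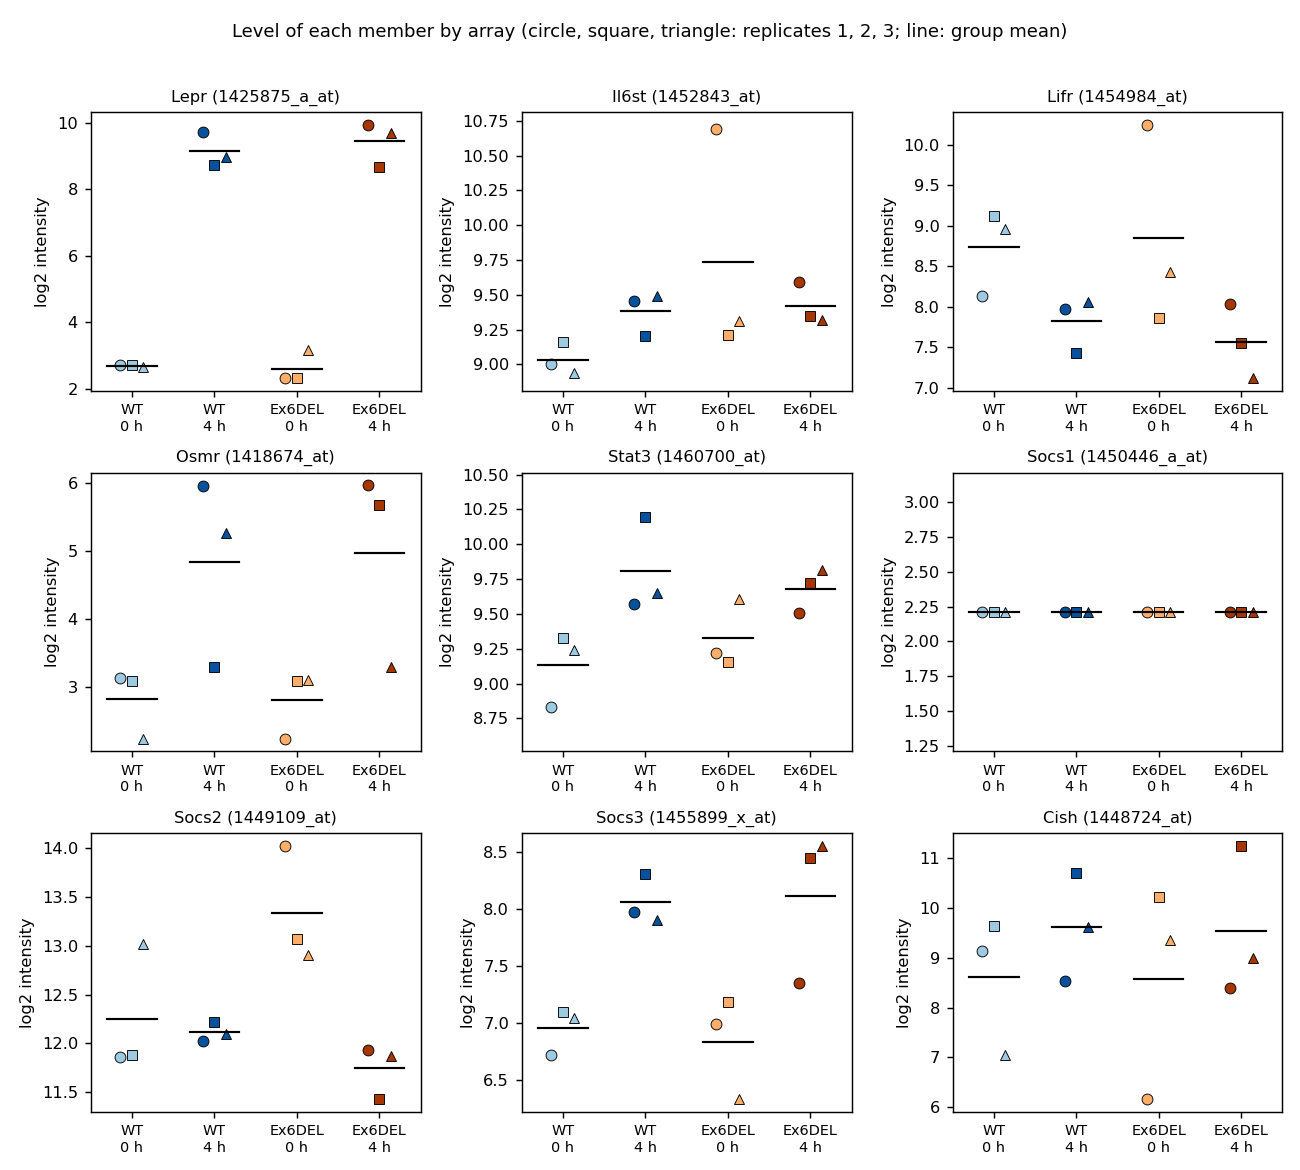
Log2 intensity of each member's representative probe set (vertical axes, 1 panel per gene, each with its own range) in the 4 groups. Circles, squares and triangles are replicates 1, 2 and 3, and lines are group means. Lepr lies between 2.32 and 3.17 on the 6 arrays at 0 h and between 8.67 and 9.94 on the 6 arrays at 4 h, and Socs1 lies at the floor on every array.

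The promoter stretches of Lepr and Socs3 are shown because both genes were called after hCG, and the start of Cish because it holds the palindrome TTCNNNGAA, which STAT dimers bind. The sequences are from RefSeq, build GRCm38.p6, and run 5′ to 3′ on the gene's strand, with a match to TTCNNNGAA in capitals. The Lepr stretch, chr4:101717157-101717406 on the plus strand, covers the 250 bases before the annotated start. The Socs3 stretch, chr11:117969367-117969616 on the minus strand, covers the same distance. The Cish stretch, chr9:107296654-107296683 on the plus strand, holds 30 bases around the start.
Lepr: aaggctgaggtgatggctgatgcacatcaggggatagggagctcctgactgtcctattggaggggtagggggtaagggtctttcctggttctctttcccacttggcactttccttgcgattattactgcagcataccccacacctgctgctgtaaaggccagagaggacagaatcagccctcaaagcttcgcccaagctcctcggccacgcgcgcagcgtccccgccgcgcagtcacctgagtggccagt
Socs3: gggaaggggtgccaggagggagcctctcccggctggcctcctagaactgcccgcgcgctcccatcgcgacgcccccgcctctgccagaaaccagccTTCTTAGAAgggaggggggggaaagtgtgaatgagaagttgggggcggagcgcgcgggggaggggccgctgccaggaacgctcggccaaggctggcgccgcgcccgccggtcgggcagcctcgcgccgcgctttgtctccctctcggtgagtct
Cish: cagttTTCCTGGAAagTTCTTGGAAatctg

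The palindrome stands once in the Socs3 stretch, with its first base at -154 from the start, and at 1 and 12 in Cish. It was absent from the printed Lepr stretch. Windows of 300 bases, from 250 before to 50 after an annotated start, were searched for this motif, which reads alike on both strands. The 12 member windows belong to 9 genes, Lepr, Il6st, Il11ra1, Lifr, Osmr, Stat3, Socs1, Socs3 and Cish. The palindrome was found in 2 of these 12 windows, and in 8.3% of all 32851 windows of the table. TGACG, a short form of the site of the cAMP response factor CREB, was searched on both strands as well. It matched 1 of the 12 member windows, that of Cish, with its first base at -97, against 20.8% of all windows. These motif matches describe letters only, and binding was not measured.

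Lepr encodes the receptor for leptin, the fat-derived hormone that reports energy stores. In WT it read 2.71, 2.71 and 2.66 on the 3 arrays at 0 h and 9.73, 8.74 and 8.97 at 4 h. In Ex6DEL it read 2.33, 2.32 and 3.17 at 0 h and 9.94, 8.67 and 9.71 at 4 h. All 0 h arrays were thus near background and all 4 h arrays far above it, with no overlap. Lepr rose by 6.46 in WT (SE 0.38, 95% interval 5.58 to 7.33, limma adjusted p = 0.000316) and by 6.83 in Ex6DEL (SE 0.38, limma adjusted p = 0.000393). By p-value it ranked 4 of 18194 genes in WT and 2 in Ex6DEL, and by size of the rise 16 and 6. Averaged over genotypes the rise was 6.64 (95% interval 6.02 to 7.26, adjusted p = 1.76e-05). An exact permutation test of that difference, two-sided over the 400 arrangements of times within genotypes, gave p = 0.005, the smallest it can give. This test was run on each of the 9 members, and its p-values were not adjusted. Since the 0 h levels lie near background, the fitted fold of 87.7 in WT and 114 in Ex6DEL depends on how background was corrected.

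Between genotypes Lepr differed by -0.08 at 0 h and by 0.29 at 4 h (95% interval -0.58 to 1.17, limma adjusted p = 1). The difference between the responses of the genotypes was 0.38 (95% interval -0.86 to 1.61, adjusted p = 0.895). The interval leaves room for a response up to 1.61 larger, or 0.86 smaller, in Ex6DEL. Lepr stayed called in 12 of 12 fits that left out 1 array, in WT, in Ex6DEL and averaged. A fit of only the 2 Ex6DEL groups gave an adjusted p of 0.0717 for the Ex6DEL response. The mean over all 4 Lepr probe sets rose by 2.94 in WT and 3.42 in Ex6DEL, less than the representative probe set.

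The 4 Lepr probe sets did not move alike. The second, 1456156_at, read 3.24, 2.21 and 2.21 in WT at 0 h and 7.85, 5.96 and 6.53 at 4 h. The Ex6DEL arrays read 2.45, 2.41 and 2.37 at 0 h and 8.86, 6.22 and 7.40 at 4 h. It rose by 4.22 in WT (adjusted p = 0.0494 over 45101 probe sets, limma) and by 5.08 in Ex6DEL (adjusted p = 0.0355). Probe set 1425644_at left the floor on 3 arrays only, at 5.11 in WT 4 h replicate 1, 5.94 in Ex6DEL 4 h replicate 1 and 2.73 in Ex6DEL 4 h replicate 3. The fourth, 1425873_a_at, stayed between 2.26 and 3.57 on all 12 arrays. Which transcript forms of Lepr each probe set reads was not examined. Leprot, whose transcript shares the start of the Lepr locus and which encodes a separate membrane protein, had a level between 10.18 and 11.64 and changed by 0.11 (adjusted p = 0.751, averaged over genotypes).

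The genes whose levels followed Lepr most closely over the 12 arrays were Snap25 (Pearson r = 0.996), Prkg2 (r = 0.994), Slc7a11 (r = 0.989), Bves (r = 0.988) and C730049O14Rik (r = 0.982). These correlations are descriptions, and they rest mostly on the shared difference between 0 h and 4 h. Snap25 encodes a membrane fusion protein of regulated secretion, and its mean was 2.45 at 0 h and 8.60 at 4 h in WT, and 2.49 and 9.09 in Ex6DEL. Prkg2 encodes a cGMP-dependent protein kinase, and its mean was 4.14 in WT at 0 h and 9.37 at 4 h.

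Il6st encodes gp130 itself. It read 9.0, 9.16 and 8.94 in WT at 0 h and 9.46, 9.20 and 9.50 at 4 h. Ex6DEL values were 10.69, 9.21 and 9.31 at 0 h and 9.59, 9.35 and 9.32 at 4 h. The gp130 transcript was thus well above background in every group, and the WT arrays of the 2 times did not overlap. The change was 0.35 in WT (SE 0.34, limma adjusted p = 0.700), -0.32 in Ex6DEL (adjusted p = 0.675) and 0.02 averaged (95% interval -0.53 to 0.56). In Ex6DEL the sign of the Il6st change turned to 0.16 without Ex6DEL 0 h replicate 1. At 0 h all Ex6DEL arrays were above all WT arrays for Il6st, 1 of 9 members with no overlap, as was the case in either direction for 6.41% of all genes. That Il6st difference was 0.70 (95% interval -0.07 to 1.48, limma adjusted p = 0.874), and 0.23 without Ex6DEL 0 h replicate 1. A lower reading Il6st probe set, 1437303_at, changed by -0.65 in WT, by -1.51 in Ex6DEL and by -1.08 averaged (limma adjusted p = 0.523). Its genotype difference at 0 h was 0.29, with overlapping arrays. Probe sets 1460295_s_at and 1421239_at, near background on most arrays, differed by -0.05 and -0.14 at 0 h.

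Lifr encodes the receptor chain that pairs with gp130 to bind leukemia inhibitory factor. It read 8.13, 9.12 and 8.96 in WT at 0 h and 7.97, 7.44 and 8.06 at 4 h. On the Ex6DEL arrays it read 10.25, 7.86 and 8.43 at 0 h and 8.04, 7.55 and 7.12 at 4 h. All WT arrays at 4 h were below those at 0 h, whereas in Ex6DEL 1 pair of values overlapped, 7.86 at 0 h and 8.04 at 4 h. The change in Lifr was -0.91 in WT (SE 0.58, limma adjusted p = 0.570), -1.27 in Ex6DEL (adjusted p = 0.282) and -1.09 averaged (SE 0.41, adjusted p = 0.143, exact permutation p = 0.020). With array weights, which count deviating arrays less, the averaged change in Lifr had an adjusted p of 0.0378 and the WT change was -1.29 with an adjusted p of 0.0396. Without Ex6DEL 0 h replicate 1 the Ex6DEL change in Lifr was -0.57. With the mean of all Lifr probe sets the averaged change was -0.51. Of the others, 1425107_a_at lay between 2.62 and 4.18 and 1450207_at between 2.50 and 2.99.

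Il6st and Lifr were both highest in Ex6DEL 0 h replicate 1, as was the second Il6st probe set, 1437303_at, at 8.80 there against 4.42 to 7.59 elsewhere. Within groups the deviations of Il6st and Lifr correlated at r = 0.91 over the 12 arrays, and at r = 0.74 over 11 arrays without that array, as a description of arrays that share a hybridisation. The same array had the highest mean of 11 theca and stroma markers, 11.92, against 8.61 to 10.35 on the other 11 arrays. Dcn, a matrix proteoglycan of stromal cells, read 13.94 there and at most 10.68 elsewhere. The list also holds Star and Cyp11a1, which granulosa cells express themselves and which were not high on that array. Star read 6.37 there, its lowest value, and Cyp11a1 read 14.11, against 13.48 to 15.76 elsewhere. The other markers of the list were highest on that array. The mean of the 8 oocyte markers was highest on that array as well, at 9.14 against 6.74 to 8.26 elsewhere, and so was the mean of the granulosa markers, at 14.44. Their part in the Il6st and Lifr values was not tested.

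**Figure D2:**
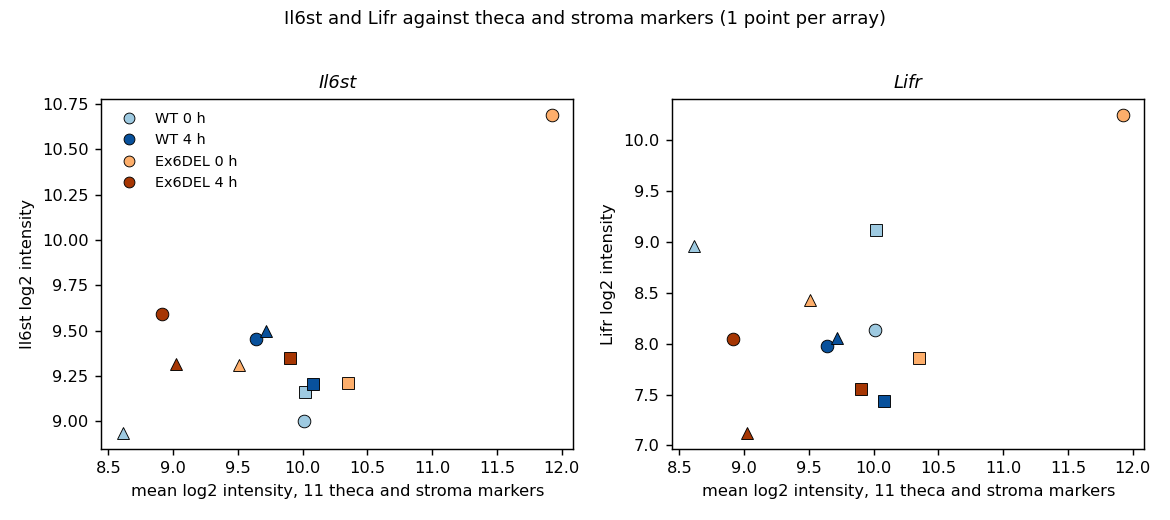
Log2 intensity of Il6st (left) and Lifr (right) on the vertical axis against the mean log2 intensity of 11 theca and stroma markers on the horizontal axis, 1 point per array, coloured by group, with circles, squares and triangles for replicates 1, 2 and 3. Ex6DEL 0 h replicate 1 stands alone at 11.92, with the highest Il6st and Lifr values, and the other arrays lie between 8.61 and 10.35.

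Other cell types were checked in the same way. The mean of 8 endothelial markers lay between 3.28 and 4.47, with 1 of the 8 at the floor on every array. The mean of 8 leukocyte markers lay between 4.32 and 4.99. Of 4 red blood cell markers 2 were measured. Hba-a1, a hemoglobin gene, was at the floor on all arrays, and Alas2, which encodes the red cell enzyme of heme synthesis, read 7.98 to 11.47. Since Hba-a1 stayed at the floor, the mean of those 2 follows Alas2 alone. It lay between 5.14 and 5.96 in WT at 0 h and between 6.01 and 6.71 in WT at 4 h. That is without overlap, as was the case in either direction for 18.9% of all genes. In Ex6DEL that mean lay between 5.10 and 6.39 at 0 h and between 6.27 and 6.84 at 4 h, with overlap. Outside the granulosa list no marker was called after hCG in the averaged comparison. Of 11 granulosa markers 4 were called down there, beside 6.62% of all genes, and 1 had a positive change. The medians of the granulosa and the theca and stroma lists differed between the genotypes, but no marker was called for the difference of the responses. In Ex6DEL the median change after hCG was -1.31 for granulosa markers (0 of 11 positive) and -1.91 for theca and stroma markers (1 of 11 positive). In WT those medians were 0.00 (5 of 11 positive, with Amh at the floor) and 0.01 (7 of 11 positive). Single granulosa markers thus moved both ways in WT. Over all genes with a mean level above 4.74, the median over genes, the median change was -0.34 in Ex6DEL and -0.07 in WT. After quantile normalization between arrays these were -0.15 and -0.16. The part of these shifts in the larger Ex6DEL differences of Socs2, Jak1 and Irs1 was not tested.

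Osmr encodes the receptor chain that pairs with gp130 to bind oncostatin M. It read 3.13, 3.08 and 2.24 in WT at 0 h and 5.95, 3.29 and 5.26 at 4 h. In Ex6DEL it read 2.24, 3.08 and 3.11 at 0 h and 5.96, 5.67 and 3.29 at 4 h. Every 4 h array lay above every 0 h array, yet 1 array of each genotype at 4 h stayed near background. The averaged change in Osmr was 2.09 (SE 0.59, 95% interval 0.74 to 3.44), and its limma adjusted p of 0.0622 missed the threshold, beside an exact permutation p of 0.005. For WT alone it was 2.02 (adjusted p = 0.320), for Ex6DEL alone 2.16 (adjusted p = 0.208). Without WT 4 h replicate 2, the lower array, the averaged change in Osmr was 2.48 with an adjusted p of 0.0419, and without Ex6DEL 4 h replicate 3 it was 2.51 with an adjusted p of 0.0331. With the mean of all 3 Osmr probe sets it was 0.74 with an adjusted p of 0.0317. The other 2 Osmr probe sets were near background.

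Lepr, Osmr and Socs3 were the 3 of 9 members whose 6 arrays at 4 h all lay above the 6 at 0 h, beside 2.48% of all genes. Within WT alone, arrays of the 2 times did not overlap for 6 of 9 members, Lepr, Il6st, Osmr, Stat3 and Socs3 higher and Lifr lower, beside 18.9% of all genes in either direction. Within Ex6DEL they did not overlap for 4 of 9, Lepr, Osmr and Socs3 higher and Socs2 lower, beside 19.7% of all genes.

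Stat3 encodes the transcription factor on which these receptors converge. Its representative probe set, 1460700_at, read 8.83, 9.33 and 9.24 in WT at 0 h and 9.57, 10.20 and 9.65 at 4 h. The Ex6DEL arrays read 9.22, 9.16 and 9.61 at 0 h and 9.51, 9.72 and 9.82 at 4 h. The WT arrays of the 2 times did not overlap, the Ex6DEL arrays did. The change was 0.67 in WT (SE 0.21, limma adjusted p = 0.186), 0.36 in Ex6DEL (adjusted p = 0.423) and 0.51 averaged (SE 0.15, adjusted p = 0.0620, exact permutation p = 0.010). For Stat3 the averaged adjusted p was 0.0400 without Ex6DEL 0 h replicate 3, and lay between 0.00828 and 0.141 over all alternatives.

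A lower reading Stat3 probe set, 1426587_a_at, read 6.92, 7.48 and 7.40 in WT at 0 h and 8.52, 8.70 and 8.83 at 4 h. Ex6DEL values were 6.73, 7.35 and 8.01 at 0 h and 8.71, 8.40 and 8.71 at 4 h. Its arrays did not overlap between times in either genotype. Averaged over genotypes it rose by 1.33 (SE 0.21, limma adjusted p = 0.0133 over 45101 probe sets), and another Stat3 probe set, 1459961_a_at, rose by 0.76 (SE 0.13, adjusted p = 0.0173). The fourth, 1424272_at, changed by -0.10 near background. Probe set 1459961_a_at read 3.94, 3.76 and 3.90 in WT at 0 h and 4.74, 4.61 and 4.61 at 4 h, against 4.24, 4.61 and 4.61 and then 4.97, 5.02 and 5.67 in Ex6DEL. Its Ex6DEL arrays lay above the WT arrays at both times, by 0.62 at 0 h (unadjusted p = 0.00856), by 0.57 at 4 h (unadjusted p = 0.0130) and by 0.59 averaged over times (unadjusted p = 0.00146). The averaged difference ranked 53 of 45101 probe sets and had a limma adjusted p of 0.945, so it was not called. Stat3 probe set 1460700_at, which reads higher, differed by 0.03 between genotypes (95% interval -0.30 to 0.37). Of all 29 member probe sets 6 were called up and 0 down in the averaged comparison by limma, 2 each of Lepr, Stat3 and Socs3, beside 2.01% of all probe sets called up and 4.54% in either direction.

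**Figure D3:**
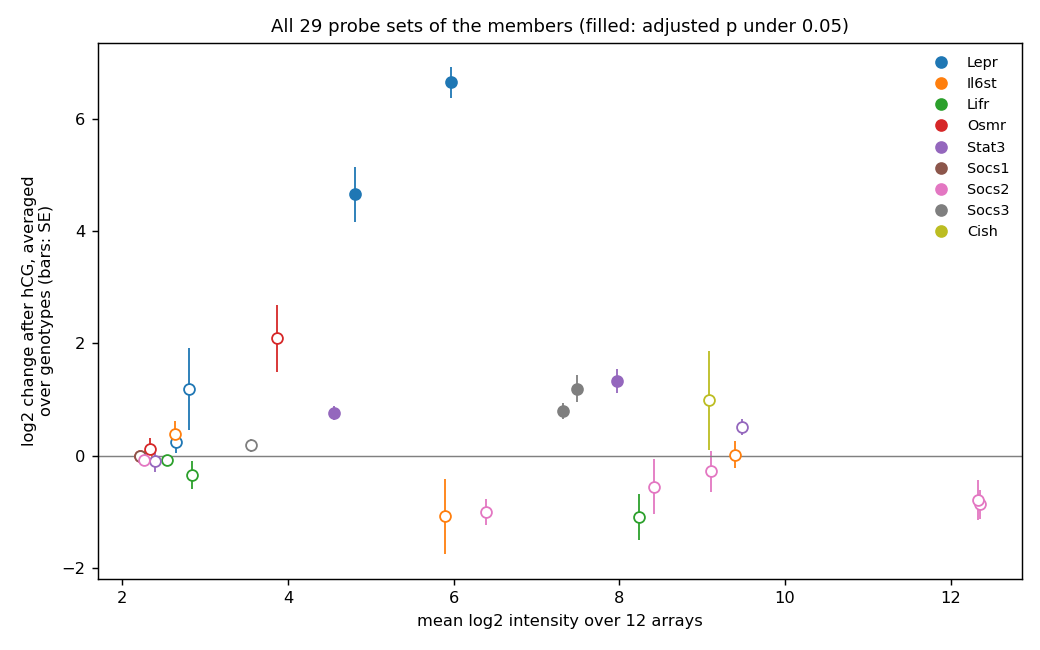
Each of the 29 member probe sets as a point, coloured by gene, with its mean log2 intensity over the 12 arrays (horizontal axis) and its log2 change after hCG averaged over genotypes (vertical axis, bars are SE). Filled points have an adjusted p under 0.05 over 45101 probe sets: 2 each of Lepr, Stat3 and Socs3, with the Lepr pair highest at 6.64 and 4.65.

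Socs3 encodes an inhibitor that binds gp130 and the leptin receptor and blocks the attached JAK kinase. It read 6.71, 7.09 and 7.04 in WT at 0 h and 7.97, 8.30 and 7.91 at 4 h. On the Ex6DEL arrays it read 6.99, 7.18 and 6.33 at 0 h and 7.35, 8.45 and 8.55 at 4 h. All 4 h arrays were higher than all 0 h arrays, with Ex6DEL 4 h replicate 1 the closest to the 0 h range. Averaged over genotypes Socs3 rose by 1.19 (SE 0.24, 95% interval 0.65 to 1.74, limma adjusted p = 0.0194, exact permutation p = 0.005), a fold of 2.29. Within a genotype the change was not called, with 1.11 for WT (adjusted p = 0.182) and with 1.28 for Ex6DEL (adjusted p = 0.0876). In Ex6DEL it was 1.66 with an adjusted p of 0.0429 without Ex6DEL 4 h replicate 1. The averaged call for Socs3 held in 11 of 12 fits without 1 array and was lost without WT 4 h replicate 2 (1.07, adjusted p = 0.0523).

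A second Socs3 probe set, 1456212_x_at, read 7.17, 7.31 and 7.22 in WT at 0 h and 7.56, 7.94 and 7.74 at 4 h. In Ex6DEL it read 6.45, 6.92 and 6.45 at 0 h and 7.31, 7.74 and 8.05 at 4 h. It rose by 0.80 averaged over genotypes (SE 0.14, limma adjusted p = 0.0194), so both Socs3 probe sets with a level clear of background rose. At 0 h its Ex6DEL arrays lay below the WT arrays, by a difference of -0.62 that was not called (limma unadjusted p = 0.0133, adjusted p = 0.919). Averaged over times that probe set differed by -0.33 between genotypes (limma unadjusted p = 0.0440, adjusted p = 0.945). The third Socs3 probe set, 1416576_at, stayed between 3.41 and 4.13. The Socs3 probe set 1416576_at differed between genotypes at 4 h by 0.42 near background (unadjusted p = 0.0299, limma adjusted p = 1). The genes whose levels followed Socs3 most closely over the 12 arrays were Npr1, a natriuretic peptide receptor (Pearson r = 0.934), S100a10 (r = 0.889) and Dnttip2 (r = 0.867).

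Socs1 encodes an inhibitor of JAK kinases best known from interferon signalling. Its single probe set read 2.21 on all 12 arrays, which is the floor of the table, so no level was measurable.

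Socs2 encodes a SOCS family member best known for restraining growth hormone receptor signalling through STAT5. It read 11.86, 11.88 and 13.02 in WT at 0 h and 12.03, 12.22 and 12.10 at 4 h. The Ex6DEL arrays read 14.03, 13.07 and 12.91 at 0 h and 11.94, 11.43 and 11.87 at 4 h. In Ex6DEL every 4 h array was lower than every 0 h array, with 12.91 and 11.94 the nearest values, while in WT the 2 times overlapped. The change in Socs2 was -1.59 in Ex6DEL (SE 0.37, 95% interval -2.44 to -0.74, limma adjusted p = 0.0649) and -0.14 in WT (95% interval -0.99 to 0.70, adjusted p = 1). Averaged over genotypes it was -0.87 (SE 0.26, adjusted p = 0.0769, exact permutation p = 0.050). The Ex6DEL change had an adjusted p of 0.0482 without WT 0 h replicate 3 and of 0.0424, at -1.80, without Ex6DEL 0 h replicate 3.

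The Socs2 response differed between genotypes by -1.45 (95% interval -2.64 to -0.25), with an unadjusted p of 0.0231 and a limma adjusted p of 0.871 over all genes. It was the 1 member of 9 with an unadjusted p under 0.05 for this difference, beside 3.2% of all genes, and no member was called beside 0.011% of genes called. After quantile normalization between arrays the Socs2 difference of responses was -0.43. Beside it, the median difference of responses was -1.48 over 11 granulosa markers and -1.64 over 11 theca and stroma markers, 0 of 11 positive in each, and -1.25 over 8 oocyte markers. Over all genes it was -0.05, with 37.3% positive, but many of these genes lie near background, unlike Socs2. Over genes above the median level the median change was -0.34 in Ex6DEL and -0.07 in WT. At 0 h Socs2 was 1.08 higher in Ex6DEL than in WT (unadjusted p = 0.0182, adjusted p = 0.874), a difference of 0.25 after quantile normalization. The same difference at 0 h had a median of 0.97 over the granulosa markers, 1.02 over the theca and stroma markers and 1.52 over the oocyte markers. Their part in the Socs2 values was not tested. At 4 h all 3 Ex6DEL arrays were below all 3 WT arrays for Socs2, 1 of 9 members with no overlap beside 2.98% of all genes, by a difference of -0.37 (limma adjusted p = 1).

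The Socs2 probe set 1418507_s_at read 10.96, 12.32 and 13.33 in WT at 0 h, a wider spread than the representative, and changed by 0.00 in WT and by -1.57 in Ex6DEL. Another, 1438470_at, fell short of the threshold at -1.0 averaged over genotypes (limma adjusted p = 0.0509), with -0.80 in WT and -1.20 in Ex6DEL. All 6 Socs2 probe sets had a negative averaged change, 1 of them at background level. They did not share the difference of the responses between genotypes. It was -1.57 for 1418507_s_at, -0.87 for 1442586_at, -0.41 for 1438470_at and 0.18 for 1446085_at, none of them called. Probe set 1446085_at changed by -0.36 in WT and by -0.18 in Ex6DEL.

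**Figure D4:**
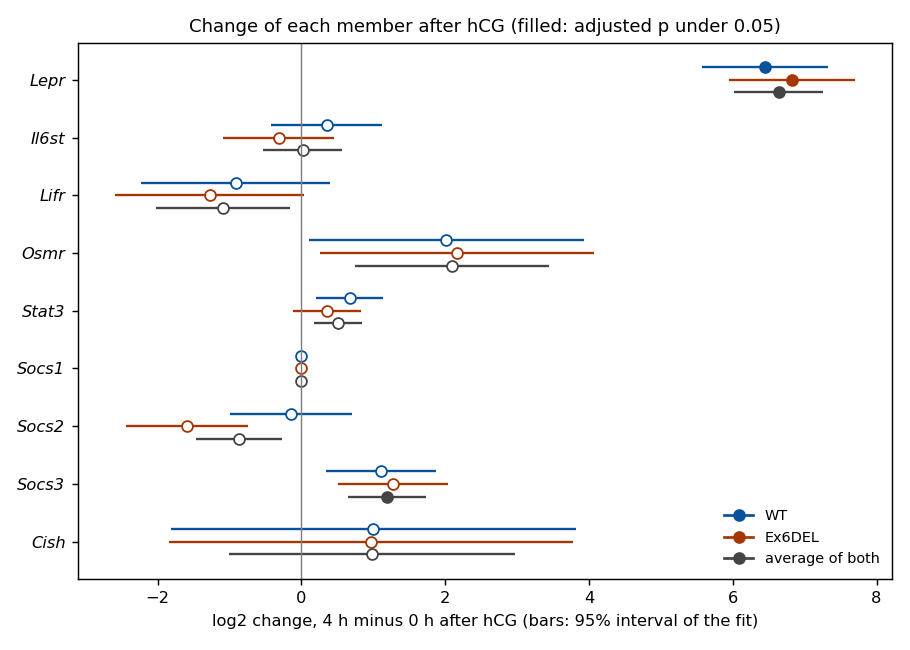
Log2 change after hCG (4 h minus 0 h, horizontal axis) of each member in WT, in Ex6DEL and averaged over both, with 95% intervals of the limma model, filled where the adjusted p was under 0.05. Lepr lies at 6.46 in WT and 6.83 in Ex6DEL, the averaged Socs3 change is filled, and Socs2 lies at -0.14 in WT and -1.59 in Ex6DEL.

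Cish encodes a SOCS family member induced through STAT5 by many cytokines. It read 9.14, 9.64 and 7.06 in WT at 0 h and 8.53, 10.70 and 9.61 at 4 h. Ex6DEL values were 6.16, 10.22 and 9.35 at 0 h and 8.39, 11.25 and 9.01 at 4 h. Replicates ranged widely, from 6.16 to 10.22 in Ex6DEL at 0 h, and the times overlapped in both genotypes. The change in Cish was 1.0 in WT (SE 1.24) and 0.97 in Ex6DEL, and 0.99 averaged (95% interval -1.01 to 2.98, limma adjusted p = 0.589). Without Ex6DEL 0 h replicate 1 the Ex6DEL change was -0.24. The interval does not exclude a change of 2.98 in Cish at this spread.

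No member was called between genotypes at 0 h, beside 0.033% of all genes, or averaged over times, beside 0.0165%. At 4 h limma called 0 of 18194 genes between genotypes, and 294 genes, 1.62%, had an unadjusted p under 0.05, none of them a member by its representative probe set. Among the other member probe sets, Stat3 1459961_a_at and Socs3 1416576_at had one at 4 h. At 0 h 1 member, Socs2, had an unadjusted p under 0.05 by its representative probe set, beside 5.36% of all genes. Of the other member probe sets, Stat3 1459961_a_at (limma unadjusted p = 0.00856) and Socs3 1456212_x_at (0.0133) had one at 0 h.

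The other genes of the pathway were counted in 5 lists with 65 genes, of which 60 were measured. In the averaged comparison 8 were called up and 5 down by limma, beside 3.1% of all genes called up and 6.62% called down, and 47 were not called. The counts of each list below stand against the same shares. All changes that follow are log2 differences of that comparison unless a genotype is named. Between genotypes averaged over times 0 of the 60 were called, and the same held for the difference of the responses.

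Of 11 ligand genes 8 were measured and 1 was called. Clcf1, which encodes a ligand of the ciliary neurotrophic factor receptor complex, rose by 2.07 (SE 0.46, limma adjusted p = 0.0285), a call kept in 4 of 12 fits without 1 array. It read 4.72, 3.12 and 2.62 in WT at 0 h and 5.30, 5.77 and 5.48 at 4 h. Lep, the gene of leptin, was at the floor of 2.21 on all 12 arrays. Lif lay near background on all arrays and changed by 0.04. Il11 lay near background too, apart from 3.61 in Ex6DEL 4 h replicate 3, and changed by 0.23 (limma adjusted p = 0.463).

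Of 8 further receptor chains and receptor partners 7 were measured and 1 was called. Leprotl1, a relative of Leprot, rose by 0.77 (limma adjusted p = 0.0338), and this call was kept in only 1 of 12 fits without 1 array. Il6ra, the interleukin 6 receptor, changed by 0.74 (adjusted p = 0.266) and Ghr, the growth hormone receptor, by -1.34 (adjusted p = 0.196).

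Of 9 kinase and STAT genes 8 were measured, 7 of the 8 with a change at or below 0, and 1 was called. Jak1, the main kinase bound to gp130, fell by 1.10 (SE 0.21, limma adjusted p = 0.0154), and the call was kept in 12 of 12 fits without 1 array. Jak1 read 10.27, 10.40 and 11.22 in WT at 0 h and 9.76, 10.31 and 10.04 at 4 h. On the Ex6DEL arrays it read 11.81, 11.24 and 11.38 at 0 h and 10.10, 9.48 and 10.04 at 4 h. Within genotypes it fell by 1.61 in Ex6DEL (adjusted p = 0.0380), and the change was -0.60 in WT (adjusted p = 0.408). Jak2, the kinase of the leptin receptor, changed by 0.51 (adjusted p = 0.153). Stat5a changed by -1.74 (adjusted p = 0.0766) and Tyk2 by -1.03 (adjusted p = 0.117).

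Of 19 inhibitor and adaptor genes all were measured, 3 were called up and 3 down, beside 3.1% and 6.62% of all genes. Pias3, which encodes a protein inhibitor of activated STAT3, fell by 1.58 (SE 0.22, limma adjusted p = 0.00567). It read 8.16, 8.56 and 8.49 in WT at 0 h and 6.50, 7.10 and 7.32 at 4 h. In Ex6DEL Pias3 read 9.06, 8.61 and 7.89 at 0 h and 6.75, 6.98 and 6.66 at 4 h, again with no overlap. Irs1, an adaptor of insulin and leptin signalling, fell by 2.59 (SE 0.47, adjusted p = 0.0133), and Gab1, an adaptor that gp130 uses towards MAP kinase, fell by 1.09 (adjusted p = 0.0191). Grb2, which links receptors to Ras, rose by 1.37 (adjusted p = 0.0171), but changed by 0.59 with the mean of all its probe sets (adjusted p = 0.135). Socs5 rose by 1.38 (adjusted p = 0.0388), a call kept in 0 of 12 fits without 1 array, and Ptpn1, a phosphatase that acts on JAK2, by 0.40 (adjusted p = 0.0476), kept in 3 of 12. The calls of Pias3, Irs1 and Grb2 were kept in 12 of 12 such fits and that of Gab1 in 10. In Ex6DEL alone Pias3 fell by 1.73 (adjusted p = 0.0355) and Irs1 by 3.30 (adjusted p = 0.0462).

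Of 18 genes known as STAT3 targets in other cells all were measured, 3 were called up, 1 down and 14 not, beside 3.1% of all genes called up and 6.62% called down. Timp1, an inhibitor of matrix proteases, rose by 2.95 (SE 0.33, limma adjusted p = 0.00340), by 3.01 in WT (adjusted p = 0.0320) and by 2.88 in Ex6DEL (adjusted p = 0.0323). It read 9.43, 9.68 and 8.0 in WT at 0 h and 12.33, 11.92 and 11.90 at 4 h. In Ex6DEL Timp1 read 8.21, 9.39 and 9.41 at 0 h and 11.75, 12.23 and 11.68 at 4 h. The transcriptional repressor Bcl6 rose by 1.40 (adjusted p = 0.0347) and the kinase gene Pim1 by 2.81 (adjusted p = 0.0444). The survival gene Bcl2l1 fell by 1.37 (adjusted p = 0.0348), and changed by -0.34 with the mean of its probe sets. The Timp1 call was kept in 12 of 12 fits without 1 array, those of Bcl6, Pim1 and Bcl2l1 in 3, 2 and 2. The median change of the 18 genes was 0.57, against -0.01 over all genes, and 14 of 18 were positive against 41.1% of all genes. The list was written with earlier results of these data known. Many of all genes lie near background, and a change of 0 counts as not positive. The median for these targets was 0.96 in WT and 0.27 in Ex6DEL. The median difference of the responses was -0.53 with 4 of 18 positive, against -0.05 and 37.3% over all genes. Over genes above the median level the median change was -0.34 in Ex6DEL and -0.07 in WT. Over granulosa markers the median difference of the responses was -1.48. In Ex6DEL at 0 h, Junb, Fos, Pim1, Cebpb, Bcl6, Vegfa, Fosl2 and Timp1 were highest in replicate 3. Myc, Bcl2l1 and Icam1 were lowest there. Junb read 10.65 in that replicate and 2.70 on the group's other arrays. The part of these values in the target medians was not tested.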

How the data were processed

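The deposited values, which the authors made with GCRMA (version not given) per the submitters' processing notes, are log2 intensities per probe set, corrected for background and normalized between arrays. GCRMA pulls low signals to a common floor, so changes of dim genes depend on it. All columns matched a sample, and 0 were left unmapped. Symbols came from the platform annotation: 34958 probe sets had 1 symbol, 932 several and 9211 none listed, and the last 2 kinds entered no gene test. Group means were modelled by limma 3.58.1 under R 4.3.3, using lmFit and eBayes (8 residual degrees of freedom, no covariates), and the code was tested on simulated data. Promoters came from RefSeq, GRCm38.p6.

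Every member probe set was tested, though those near background are not all described singly. Named genes are all members, the pathway genes called in a comparison plus at most 3 per list with the smallest p, and the genes most like Lepr and Socs3. Genes outside this rule (Leprot, Lep, Lif, Jak2, Dcn, Star, Cyp11a1, Amh, Hba-a1, Alas2 and Smarca1) were chosen after their values were seen. The members and lists were chosen with earlier results of these data known, and the TGACG motif was added after the design. Alternatives were quantile normalization, a shift to one median, a filter that kept genes above 4.74 (the median level), the mean of all probe sets, every probe set by itself, trend and robust eBayes, array weights, the replicate number as a block, only the groups compared, a threshold of 0.01 for the adjusted p, and leaving out each array. Leaving out WT 0 h replicate 1 together with Ex6DEL 0 h replicate 3 was added after seeing the data.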

Additional observations from a re-analysis of the deposited data

How the results depend on the processing

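Of 606 values of the members' 27 hCG changes under the alternatives, 569 kept their direction and side of the threshold, 20 passed it newly, 3 lost it and 14 turned sign. The count of members called in WT (1) was 3 with array weights. In Ex6DEL (1 member) it was 2 after the shift to one median, 3 with genes above the median level only, 2 without the pair of WT 0 h replicate 1 with Ex6DEL 0 h replicate 3 (added after seeing the data), 0 with a fit of only the groups compared, and 1 to 2 members without 1 array. Averaged over genotypes (2 members) it was 4 with the mean of all probe sets, 4 with array weights, 1 at an adjusted p under 0.01, and 2 to 3 members without 1 array. Between genotypes, and for the difference of responses, 0 members were called under every alternative run. The members' changes that turned sign were small or rested on a few arrays. Il6st in Ex6DEL was 0.0004 with array weights and -0.58 to 0.16 without 1 array. Il6st averaged was -0.0087 after the shift to one median, -0.17 with the mean of all probe sets, -0.10 without the named pair, and -0.11 to 0.26 without 1 array. Socs2 in WT was 0.12 with array weights and -0.34 to 0.24 without 1 array. Cish in Ex6DEL was -0.0030 with array weights and -0.24 to 1.79 without 1 array. The cause was not tested. Of 414 values of 19 pathway genes 305 kept direction and call, 104 lost the call, 5 gained it and 0 turned sign. Precision is limited by having 3 arrays in each group, and levels near background limit Osmr, Socs1 and the dim probe sets.

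Whether replicate numbers pair the samples is uncertain. Deviations from the group means of samples with the same number correlated between -0.37 and 0.73, so not every pair was clearly above 0, but for Ex6DEL at 0 h and 4 h the 3 correlations were 0.14, 0.40 and 0.24. A sample correlated best with its own number in 21 of 36 comparisons with another group, each a choice among the 3 arrays of that group. With the number as a block, the members called were 1 in WT, 1 in Ex6DEL and 3 averaged over genotypes, where Stat3 was added (0.51, limma adjusted p = 0.0479).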

Other observations

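Il6, the gene of the founding gp130 ligand, was at the floor of 2.21 on 10 of 12 arrays and read 4.87 in WT 4 h replicate 1 and 4.63 in Ex6DEL 4 h replicate 1. The Lepr probe set 1425644_at was clearly above background on the same 2 arrays, at 5.11 and 5.94. Both sets of values are given as single readings with no test, and the deviations of these 2 arrays from their group means correlated at 0.73 across genes.

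Within groups, Cish and Socs2 deviated in opposite directions, with r = -0.82 over the 12 arrays, a description of arrays that share a hybridisation. Cish was lowest in Ex6DEL 0 h replicate 1, at 6.16, where Socs2 was highest, at 14.03. In WT 0 h replicate 3 Cish was at 7.06 and Socs2 at 13.02, while the other 2 WT arrays of that time had Cish at 9.14 and 9.64 and Socs2 at 11.86 and 11.88. Star, the cholesterol transporter of steroid synthesis, was also lowest on those arrays, at 6.37 in Ex6DEL 0 h replicate 1 and 8.22 in WT 0 h replicate 3, against 11.46 to 14.20 on the other 0 h arrays. Star was picked after its values were seen, and its relation to Cish and Socs2 was not tested.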
